A study of Homo sapiens with 6 samples.

Results

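The genes of glycolysis and of the response to low oxygen were examined in HK2 cells after knockdown of OCRL. The 43 genes were taken by name from the textbook pathway, with earlier results of these data known. They were 17 glycolytic enzymes, 4 regulators of glycolytic flux, 6 subunits and sensors of the hypoxia-inducible factor (HIF), and 16 other genes that HIF is known to induce. Of these, 41 had a probe set with a single gene symbol, out of 11963 genes measured under a name in the whole table, and CA9 and ANKRD37 were not analysed here. HK2 names both the cell line, an immortalised human kidney proximal tubule epithelium, and the gene of hexokinase 2, which is written below as the HK2 gene. Cells of both groups were grown in DMEM F12 with insulin, transferrin and selenium, were transfected at 30% confluence with Dharmafect 4, and gave RNA after 96 h of siRNA. The OCRL group received OCRL siRNA and the control group a non-targeting siRNA, with 3 arrays each from separate experiments, and the labels name no treatment with low oxygen. The effect of the siRNA reagent and that of lower OCRL cannot be told apart in this design, and in bulk RNA a change in the number of expressing cells cannot be told apart from a change per cell.

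Glycolysis splits glucose into pyruvate, which is either used in mitochondria by pyruvate dehydrogenase or reduced to lactate. HIF is a pair of proteins, an oxygen-labile alpha subunit (HIF1A or EPAS1) and a stable partner (ARNT). With oxygen present, prolyl hydroxylases of the EGLN family mark the alpha subunit, and VHL then directs its destruction, so that HIF activity is set mainly at the level of the protein. When HIF accumulates it binds a short core motif near its target genes, which include most glycolytic enzymes, and in kidney epithelium it is well known because VHL loss drives renal clear cell carcinoma.

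Values are log2 intensities of single-colour Affymetrix arrays, so 1 unit is a doubling, and the number of arrays limits the precision. Array medians ran from 7.27 to 7.30 in the OCRL siRNA group and from 7.23 to 7.24 in the control siRNA group, and no array stood apart (Pearson's r across probe sets 0.998 to 0.999 within groups and 0.994 to 0.995 between them, a description). OCRL itself was at 7.52, 7.49 and 7.40 in OCRL siRNA cells, against 9.49, 9.48 and 9.51 in control cells, which left 24.6% of the control level (exact two-sided permutation p = 0.1, the smallest that 3 arrays against 3 can give), and its second probe set differed by -1.01. Among 14 measured markers of proximal tubule and epithelium 3 were called higher and 3 lower, beside 15.5% and 10.5% of all genes. The brush border peptidase genes DPP4 (log2 difference 0.68), MME (0.61) and ANPEP (0.56) rose, and the keratin genes KRT8 (-0.38) and KRT19 (-0.38) and the renal transcription factor gene PAX8 (-0.29) fell. The keratin gene KRT18 was bright (13.30 in OCRL siRNA cells and 13.34 in control cells) and not called, and the tubule markers LRP2, AQP1 and ANPEP were dim, under each array's lower quartile. None of the 11 measured leukocyte and endothelial markers was called by limma in either direction (1 higher and 1 lower at an unadjusted p under 0.05), and of 5 fibroblast markers LUM was lower (8.62 in OCRL siRNA cells against 9.23 in control cells, adjusted p = 0.00808). The part of the markers that moved in the results below was not tested.

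Part of the members rose, and in the main fit limma called none lower on its brightest probe set. The differences of 27 members were above 0 and those of 14 below. Of 41 measured genes, 17 were higher in OCRL siRNA cells, 0 were lower and 24 did not pass at an adjusted p of 0.05 over all probe sets. Over all 11963 genes 15.5% were called higher and 10.5% lower, against 41.5% and 0 of the members. Dim genes were rarer among the members: 1 of 41 was under the lower quartile on all 6 arrays, against 2071 of 11963 genes. With dim probe sets left out, 21 of 37 members were higher and 2 lower, beside 31.2% and 21.0% of the genes then tested. At an unadjusted p under 0.05, 22 members were higher and 2, PGK1 and P4HA1, lower, beside 2602 and 2001 of 11963 genes. The median log2 difference of the members was 0.14, beside 0.0005 over all genes. The groups did not overlap in 22 members with OCRL siRNA higher and in 7 with it lower, beside 25.1% and 19.8% of all genes. Changes of at least 1.5-fold were found in 5 members, CA12, NDRG1, VEGFA, BHLHE40 and PDK1, all of them higher, where 2.51% of all genes rose by that much. When the array medians were set equal, 13 members were higher and 2 lower, beside 12.0% and 14.8% of all genes. The median difference over all genes was then -0.045. Over all probe sets 42.0% of calls were then higher, against 57.2% with the values as deposited.

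By role, the genes called higher were 8 of 14 among the other HIF targets (median difference 0.23), 2 of 4 among the flux regulators (0.32), 2 of 6 among HIF subunits and sensors (0.08) and 5 of 17 among the glycolytic enzymes (-0.01). The difference between these shares was not tested.

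**Figure D1:**
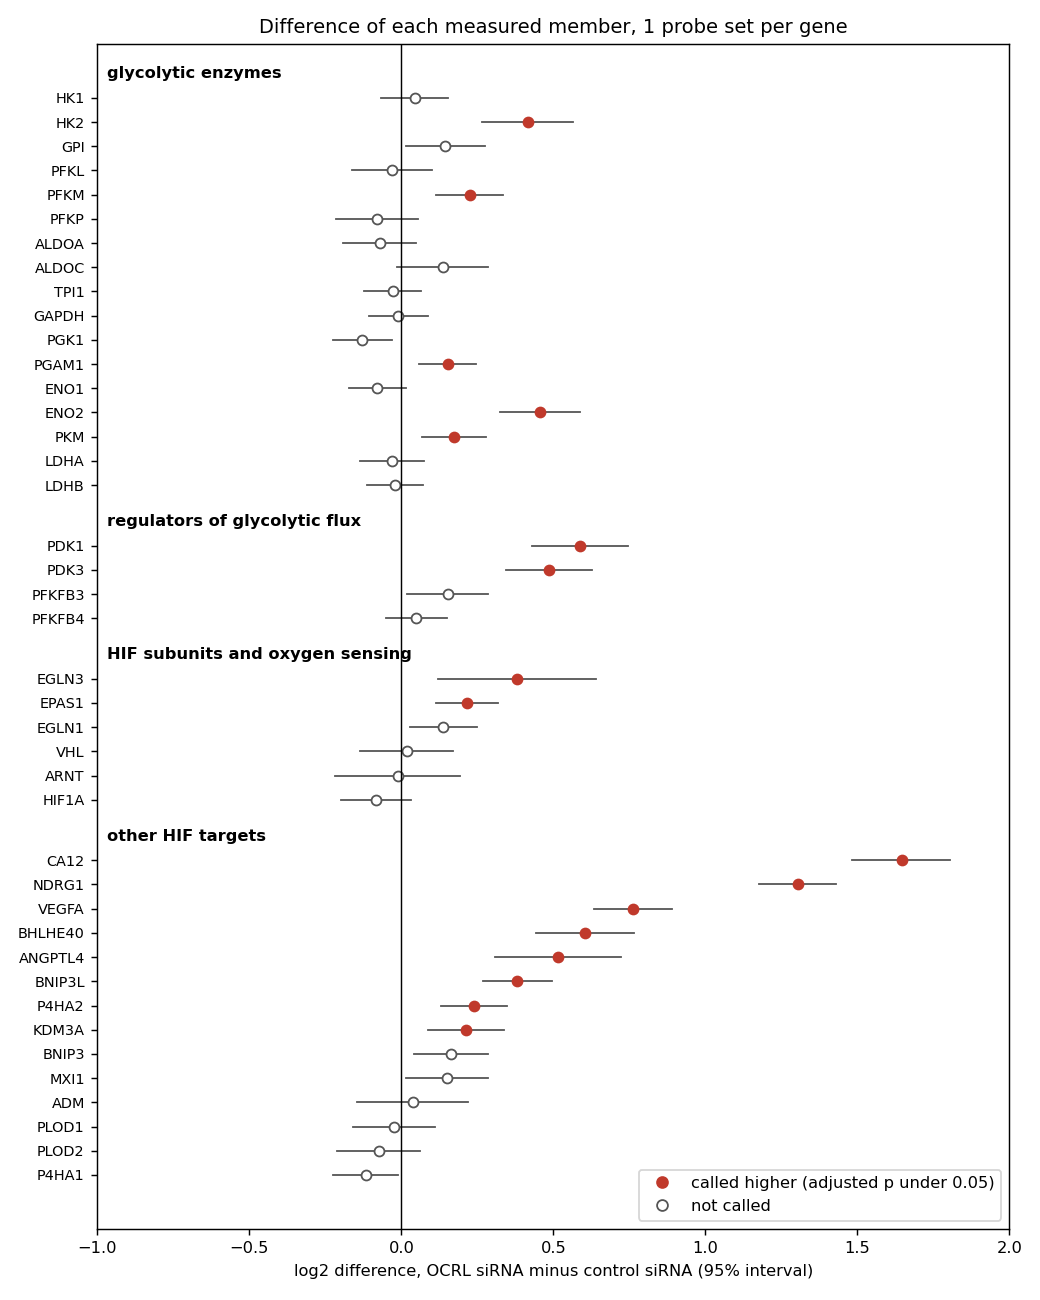
The log2 difference (OCRL siRNA minus control siRNA, horizontal axis) of each of the 41 measured members is plotted with its 95% interval from limma, grouped by role, with filled points for genes called higher. CA12 (1.65 on the log2 scale) and NDRG1 (1.30) stand farthest to the right, and most glycolytic enzymes lie close to 0.

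The promoters of members that rose and of members that did not are shown because both hold the HIF core motif. The core was searched as ACGTG or GCGTG on both strands in the RefSeq window (GRCh38.p14) from 250 bases before to 50 after the start of each gene. Promoters matched for 39 of the 43 genes (all but VEGFA, NDRG1, BNIP3L and VHL), and only the first listed promoter of each gene was kept. The core was held by 29 of the 39 (74.4%), and by 56.7% of the 14058 promoters of all measured genes. Those promoters outnumber the 11963 measured genes, so some genes count there repeatedly, and the shares are not like for like. The core was found in 9 of 14 matched promoters of the 17 members called higher (64.3%). It was found in 18 of 23 promoters of members not called (78.3%), the rest being promoters of CA9 and ANKRD37. ACGTG overlaps the E-box CACGTG, which BHLHE40 and MYC-type factors bind, and CACGTG was present in 6 of the 39. A match is a description of the sequence and not a binding site. Capitals mark the core on either strand, and each sequence runs 5′ to 3′ on the strand of its gene.
CA12, chr15:63381797-63382096, minus strand: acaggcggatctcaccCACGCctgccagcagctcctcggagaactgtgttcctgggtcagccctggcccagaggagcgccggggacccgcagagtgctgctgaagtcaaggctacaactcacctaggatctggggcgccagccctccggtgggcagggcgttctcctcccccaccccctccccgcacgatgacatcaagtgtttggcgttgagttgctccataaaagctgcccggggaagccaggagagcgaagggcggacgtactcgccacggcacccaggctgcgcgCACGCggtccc
BHLHE40, chr3:4979187-4979486, plus strand: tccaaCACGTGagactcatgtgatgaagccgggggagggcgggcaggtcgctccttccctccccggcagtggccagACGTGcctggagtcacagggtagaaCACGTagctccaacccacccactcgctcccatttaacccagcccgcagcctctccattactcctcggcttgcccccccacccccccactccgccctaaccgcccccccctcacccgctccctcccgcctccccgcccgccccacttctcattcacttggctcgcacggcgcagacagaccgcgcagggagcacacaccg
HK2, chr2:74833877-74834176, plus strand: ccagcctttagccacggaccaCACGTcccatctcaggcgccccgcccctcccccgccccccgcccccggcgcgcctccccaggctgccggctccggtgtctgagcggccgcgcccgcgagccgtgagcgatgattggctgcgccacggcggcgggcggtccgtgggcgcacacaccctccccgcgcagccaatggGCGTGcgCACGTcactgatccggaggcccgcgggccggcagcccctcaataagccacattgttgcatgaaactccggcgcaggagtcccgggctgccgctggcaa
ENO2, chr12:6914330-6914629, plus strand: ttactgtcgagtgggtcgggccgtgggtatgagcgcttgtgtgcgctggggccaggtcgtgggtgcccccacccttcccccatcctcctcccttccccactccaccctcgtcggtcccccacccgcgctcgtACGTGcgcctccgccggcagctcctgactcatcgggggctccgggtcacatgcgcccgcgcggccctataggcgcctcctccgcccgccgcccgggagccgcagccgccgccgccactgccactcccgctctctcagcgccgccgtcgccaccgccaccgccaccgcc
PGK1, chrX:78103998-78104297, plus strand: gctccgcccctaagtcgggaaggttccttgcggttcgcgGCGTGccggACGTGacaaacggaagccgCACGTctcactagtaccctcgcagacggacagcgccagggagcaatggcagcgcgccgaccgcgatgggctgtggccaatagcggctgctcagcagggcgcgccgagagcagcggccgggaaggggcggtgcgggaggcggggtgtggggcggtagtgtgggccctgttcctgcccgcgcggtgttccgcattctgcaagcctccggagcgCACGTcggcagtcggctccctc
LDHA, chr11:18394313-18394612, plus strand: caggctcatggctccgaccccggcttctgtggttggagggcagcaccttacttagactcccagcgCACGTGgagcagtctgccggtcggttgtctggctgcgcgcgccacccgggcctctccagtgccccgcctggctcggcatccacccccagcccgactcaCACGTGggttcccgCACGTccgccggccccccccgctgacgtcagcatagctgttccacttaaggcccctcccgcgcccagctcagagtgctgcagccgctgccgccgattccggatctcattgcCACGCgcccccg
The first 4 of these genes rose after OCRL siRNA. The PGK1 window holds 4 core matches and the LDHA window 6, and neither gene was called. Each CACGTG reads the same on both strands and counts as 2 overlapping matches, and the LDHA window holds 2 such stretches. The CA12 window, from the member with the largest rise, holds 2 matches of the GCGTG form and none of ACGTG.

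Of the HIF subunit genes, EPAS1 rose slightly and HIF1A and ARNT were not called. HIF1A, the alpha subunit found in most cells, was at 14.21, 14.21 and 14.19 in OCRL siRNA cells, against 14.36, 14.25 and 14.25 in control cells. The OCRL siRNA arrays all lay below the control arrays, but the difference of -0.08 did not pass (SE 0.048, 95% interval -0.20 to 0.03, adjusted p = 0.277). EPAS1, which encodes the HIF-2 alpha subunit, was at 12.50, 12.48 and 12.51 in OCRL siRNA cells and at 12.33, 12.25 and 12.26 in control cells. EPAS1 was higher on every OCRL siRNA array and rose 1.16-fold (log2 difference 0.22, SE 0.043, adjusted p = 0.0121, limma), though the call was lost without OCRL siRNA replicate 3 (adjusted p = 0.0508), with the mean of its probe sets (0.0696) and with the more variable probe set (0.349). Within arrays the EPAS1 value minus the HIF1A value was 0.30 higher after OCRL siRNA, at -1.71 ± 0.022 against -2.01 ± 0.025 (SD, n = 3), without overlap. ARNT, the common partner, was at 8.29 ± 0.091 in OCRL siRNA cells and 8.30 ± 0.151 in control cells (adjusted p = 0.942).

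Of the oxygen sensors, EGLN3, a hydroxylase that HIF itself induces, was at 5.83, 6.20 and 5.83 in OCRL siRNA cells, against 5.57, 5.48 and 5.67 in control cells. Its 1.30-fold rise (log2 difference 0.38, SE 0.109, adjusted p = 0.0470) rested on dim values and was lost whichever array was left out (adjusted p = 0.0526 to 0.129). EGLN1, the main HIF hydroxylase, was at 9.76 ± 0.059 in OCRL siRNA cells and at 9.62 ± 0.016 in control cells, with no overlap, and did not pass (log2 difference 0.14, adjusted p = 0.0791). VHL was at 3.56 in OCRL siRNA cells and 3.54 in control cells, in the dimmest range of each array, where a difference would be hard to see.

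The largest rises among the members were in the other HIF targets. CA12, a membrane carbonic anhydrase that handles acid outside the cell, was at 8.977, 9.107 and 8.986 in OCRL siRNA cells, against 7.499, 7.324 and 7.312 in control cells. The rise was 3.13-fold (log2 difference 1.65, SE 0.068, adjusted p = 3.50e-05, limma), with more than 1 log2 unit between the lowest OCRL siRNA array and the highest control array. NDRG1, a stress-induced gene that is a common reporter of hypoxia, was at 10.70, 10.82 and 10.86 in OCRL siRNA cells and at 9.48, 9.51 and 9.49 in control cells. NDRG1 rose 2.47-fold (log2 difference 1.30, SE 0.053, adjusted p = 3.44e-05). VEGFA, the main angiogenic growth factor, was at 11.08, 11.06 and 11.04 in OCRL siRNA cells, against 10.38, 10.30 and 10.21 in control cells. VEGFA rose 1.69-fold (log2 difference 0.76, SE 0.054, adjusted p = 1.89e-04), and the spread within either group was far smaller (SD 0.020 and 0.084).

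BHLHE40, a transcriptional repressor that links hypoxia and the circadian clock, was at 10.64, 10.85 and 10.83 in OCRL siRNA cells and at 10.23, 10.14 and 10.13 in control cells, a 1.52-fold rise (log2 difference 0.60, SE 0.068, adjusted p = 0.00114). ANGPTL4, a secreted inhibitor of lipoprotein lipase, was at 7.75, 7.503 and 7.71 in OCRL siRNA cells, against 7.10, 7.27 and 7.05 in control cells, a 1.43-fold rise. The ANGPTL4 groups did not overlap, although the nearest arrays lay close (log2 difference 0.52, SE 0.087, adjusted p = 0.00631). BNIP3L and BNIP3 encode related receptors that mark mitochondria for autophagy. BNIP3L was at 12.17, 12.12 and 12.19 in OCRL siRNA cells, against 11.84, 11.76 and 11.73 in control cells, and rose 1.30-fold (log2 difference 0.38, adjusted p = 0.00183). The brightest probe set of BNIP3 was at 12.85, 12.91 and 12.92 in OCRL siRNA cells, against 12.80, 12.70 and 12.68 in control cells, and did not pass (0.16, adjusted p = 0.0637), while its other probe set was called (0.37, SE 0.039, adjusted p = 9.11e-04).

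**Figure D2:**
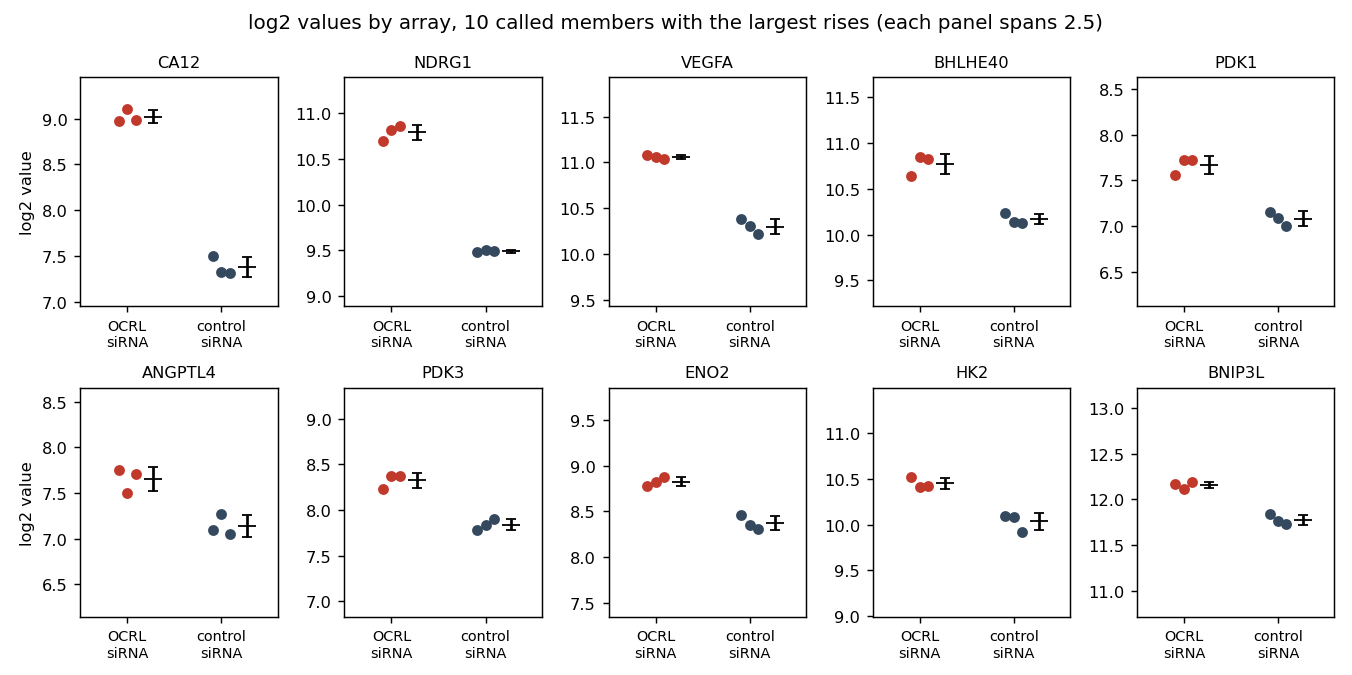
Log2 values of each array (points), with the mean and SD of 3 arrays beside them, are shown for the 10 called members with the largest rises, OCRL siRNA left of control siRNA, and every panel spans 2.5 log2 units. In each panel all 3 OCRL siRNA arrays lie above all 3 control arrays.

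Of 4 collagen-modifying enzymes, P4HA2 rose and the others were not called. P4HA2, a subunit of collagen prolyl hydroxylase, was at 12.19, 12.17 and 12.21 in OCRL siRNA cells, against 11.89, 11.98 and 11.98 in control cells, and rose 1.18-fold (log2 difference 0.24, SE 0.045, adjusted p = 0.0101). Its paralog P4HA1 was at 11.89, 11.89 and 11.90 in OCRL siRNA cells, against 12.07, 12.00 and 11.97 in control cells, a difference of -0.12 that did not pass (adjusted p = 0.109). The value of P4HA2 minus that of P4HA1 was 0.29 ± 0.020 in OCRL siRNA arrays and -0.06 ± 0.103 in control arrays, a gap of 0.36 (exact permutation p = 0.1). The lysyl hydroxylase genes PLOD1 and PLOD2 differed by -0.02 (95% interval -0.16 to 0.11) and -0.07 (-0.21 to 0.06), and neither passed.

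KDM3A, a histone demethylase, was at 10.65, 10.67 and 10.61 in OCRL siRNA cells, against 10.50, 10.35 and 10.45 in control cells, and rose 1.16-fold (log2 difference 0.21, SE 0.053, adjusted p = 0.0289). That call was lost when any array other than control replicate 1 was left out (adjusted p up to 0.0876). MXI1, an antagonist of MYC, differed by 0.15 (adjusted p = 0.106). ADM, the peptide hormone adrenomedullin and a classical HIF target, was at 10.79, 10.85 and 10.94 in OCRL siRNA cells and at 10.69, 10.84 and 10.95 in control cells. The ADM groups overlapped, and its difference of 0.04 had a 95% interval of -0.15 to 0.22.

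Of the 4 regulators of flux, both pyruvate dehydrogenase kinase genes rose and both PFKFB genes were not called. The kinases inhibit pyruvate dehydrogenase, which uses pyruvate inside mitochondria. PDK1 was at 7.56, 7.72 and 7.73 in OCRL siRNA cells, against 7.16, 7.09 and 6.999 in control cells, a 1.503-fold rise (log2 difference 0.59, SE 0.066, adjusted p = 0.00118). PDK3 was at 8.23, 8.38 and 8.37 in OCRL siRNA cells, against 7.78, 7.84 and 7.91 in control cells, a 1.40-fold rise (0.48, SE 0.060, adjusted p = 0.00168). The rises of the 2 kinases were not told apart (PDK1 minus PDK3 0.10 higher after OCRL siRNA, exact permutation p = 0.4). PFKFB3, which makes the allosteric activator of phosphofructokinase, was at 11.91 ± 0.067 in OCRL siRNA cells and at 11.75 ± 0.063 in control cells, without overlap, and did not pass (0.15, adjusted p = 0.0993). PFKFB4 differed by 0.05 (95% interval -0.05 to 0.15) at a low level.

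The glycolytic enzymes themselves changed little in size, none as much as 1.5-fold. Of the 17, 5 were called higher (29.4%), beside 15.5% of all genes. The clearest rises were those of ENO2 and the HK2 gene. ENO2, the neuronal form of enolase, was at 8.78, 8.82 and 8.87 in OCRL siRNA cells, against 8.46, 8.35 and 8.31 in control cells, a 1.37-fold rise (log2 difference 0.46, SE 0.056, adjusted p = 0.00162, limma). The HK2 gene, whose hexokinase is the inducible form, was at 10.52, 10.41 and 10.42 in OCRL siRNA cells, against 10.10, 10.09 and 9.92 in control cells, a 1.33-fold rise (0.42, SE 0.063, adjusted p = 0.00404). Its second, dimmer probe set had the opposite sign (-0.22, adjusted p = 0.113), and with the mean of both the call was lost (0.10, adjusted p = 0.287).

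PFKM, the muscle form of phosphofructokinase, was at 10.91, 10.90 and 10.85 in OCRL siRNA cells, against 10.70, 10.61 and 10.67 in control cells (log2 difference 0.22, SE 0.046, adjusted p = 0.0137, and 0.0518 without control replicate 2). PGAM1, the phosphoglycerate mutase, was at 14.11, 14.10 and 14.12 in OCRL siRNA cells, against 13.97, 13.95 and 13.94 in control cells, a narrow rise of 0.15 (SE 0.039, adjusted p = 0.0322). PKM, pyruvate kinase, was at 10.35, 10.35 and 10.36 in OCRL siRNA cells, against 10.12, 10.21 and 10.21 in control cells (0.17, SE 0.045, adjusted p = 0.0323), and its other probe set differed by -0.05. Neither of the last 2 was stable: the PGAM1 call was lost in 5 of 6 fits with an array left out, all but that without control replicate 1 (adjusted p up to 0.105), and the PKM call in 6 of 6 (0.0515 to 0.103).

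Isozymes of the same step were compared within arrays, which cancels a shift of the whole array that is equal at all intensities. A shift that depends on brightness is not cancelled. The ENO2 value minus that of ENO1, the ubiquitous enolase, was 0.53 higher after OCRL siRNA (-4.96 ± 0.067 against -5.50 ± 0.087, SD, n = 3). The same gap was 0.37 for the HK2 gene minus HK1, 0.31 for PFKM minus PFKP, 0.25 for PFKM minus PFKL and 0.21 for the brain aldolase gene ALDOC minus ALDOA. In these 5 pairs the groups did not overlap. Each had an exact two-sided permutation p of 0.1, the smallest possible, or 0.111 adjusted over the 10 pairs of relatives compared. Among single genes, 25.1% of all did not overlap with OCRL siRNA higher and 19.8% with it lower, and no such share was computed for pairs. ENO2, the HK2 gene and PFKM were called without overlap by themselves, so their pairs are not separate support. HK1 (log2 difference 0.04), PFKL (-0.03), PFKP (-0.08), ALDOA (-0.07), ALDOC (0.14) and GPI (0.14) did not pass, and the differences of HK1 and PFKL changed sign in some settings.

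The remaining 6 enzymes lay at 13 or above on the log2 scale, as did ALDOA and PGAM1, near the top of the range of the arrays. PGK1, phosphoglycerate kinase, was at 14.05, 14.03 and 14.06 in OCRL siRNA cells, against 14.21, 14.16 and 14.15 in control cells. The PGK1 arrays did not overlap and the difference of -0.13 ran opposite to the rises above, but it did not pass (SE 0.041, adjusted p = 0.0638). One of its 3 other probe sets was called lower (-0.21, adjusted p = 0.0344). With the array medians set equal PGK1 was called lower (-0.18, adjusted p = 0.0296), as were 14.8% of all genes. LDHA, which makes lactate, was at 14.35, 14.34 and 14.34 in OCRL siRNA cells, against 14.43, 14.35 and 14.35 in control cells, a difference of -0.03 with a 95% interval of -0.14 to 0.07. GAPDH (-0.01, 95% interval -0.11 to 0.09), TPI1 (-0.03), LDHB (-0.02) and ENO1 (-0.08, adjusted p = 0.212) did not pass either. Of these 8 bright enzymes 1 was called, PGAM1, and of all 361 genes with a mean at or above 13 16.6% were called (9.7% higher and 6.93% lower), beside 26.0% of all genes. Several of these enzymes have near-identical copies in the genome, and many of their probe sets are of the types _s_at and _x_at, which can match more than one sequence, so their values are uncertain to that extent.

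**Figure D3:**
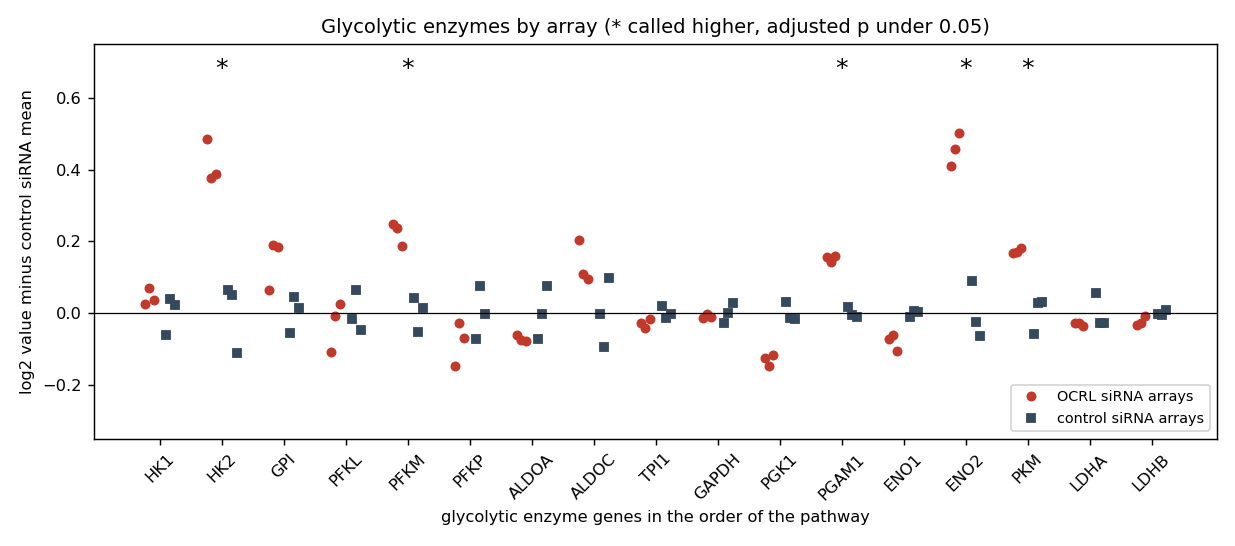
The log2 value of each array minus the mean of the control arrays (vertical axis) is shown for the 17 glycolytic enzyme genes in pathway order, OCRL siRNA (circles) left of control siRNA (squares), with stars for calls. ENO2 and the HK2 gene stand out above 0, PGK1 lies below 0, and LDHA and GAPDH lie close to 0.

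For 18 members several probe sets could be compared. Over all probe sets 13.2% were called higher and 9.89% lower (23.1% in all). All 4 VEGFA probe sets were called higher, with log2 differences from 0.33 to 0.76, as were both of BNIP3L (0.38 and 0.57) and both of BHLHE40 (0.60 and 0.33). Of 6 CA12 probe sets 4 were called higher, by 1.29 to 1.65, and the other two differed by 0.04 and -0.06, at 6.30 and 6.19 in OCRL siRNA cells against 6.26 and 6.26 in control cells. Among 3 PDK3 probe sets 2 were called higher, and the third differed by 0.19. EPAS1 had the same difference, 0.22, in both of its probe sets, but the dimmer one did not pass (adjusted p = 0.349). All probe sets of PFKL, ALDOA, TPI1, GAPDH, ENO1, LDHB, ARNT and PLOD2 were not called.

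**Figure D4:**
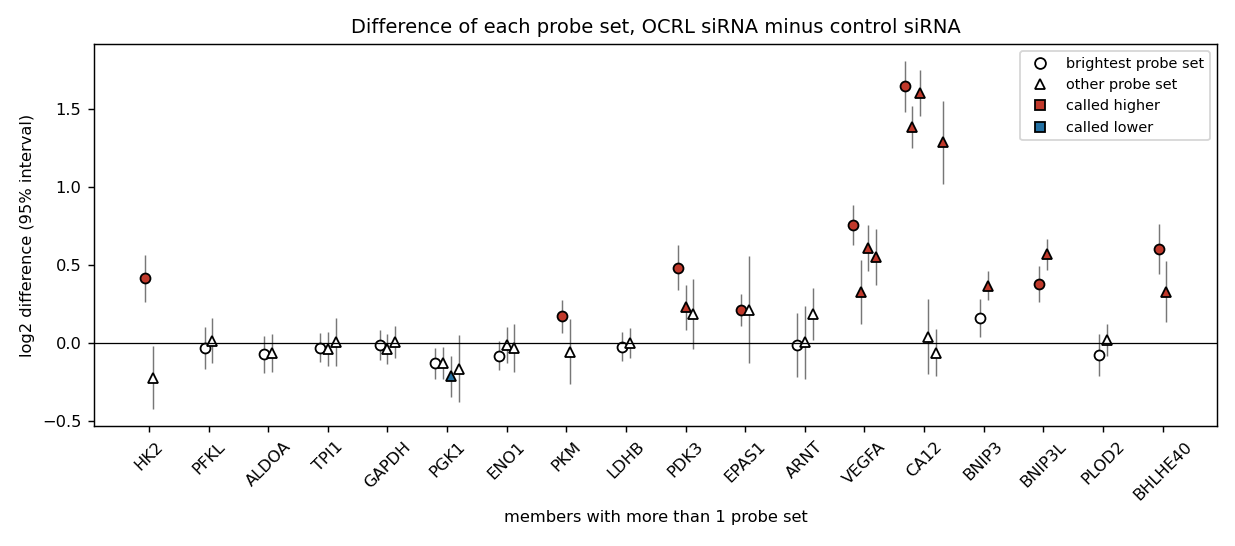
Each probe set of the 18 members with several is plotted by its log2 difference (OCRL siRNA minus control siRNA) and 95% interval, with circles for the brightest probe set of a gene and triangles for the others. The CA12 probe sets fall apart into 4 near 1.3 to 1.65 and 2 near 0, and the only one called lower belongs to PGK1.

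Genes next to the members in the pathway were read from 7 further lists, in which 21 of 89 measured genes were higher (23.6%) and 9 lower, beside 15.5% and 10.5% of all genes, against which the counts of each list below are to be read. Of 9 measured genes of glucose and lactate transport, 3 were higher and 1 lower. SLC16A1 and SLC16A3 were among 4 of the 13 listed genes that were not measured under a single symbol. SLC2A3, a high-affinity glucose transporter, was at 9.09, 9.21 and 9.26 in OCRL siRNA cells, against 8.06, 7.66 and 7.82 in control cells (2.53-fold, log2 difference 1.34, SE 0.105). SLC2A1, the common glucose transporter, was at 9.74, 9.81 and 9.83 in OCRL siRNA cells, against 9.42, 9.40 and 9.31 in control cells (1.34-fold, 0.42, SE 0.050), and SLC2A10 rose by 0.27. The SLC2A1 call was lost without _s_at and _x_at probe sets (adjusted p = 0.114), while the monocarboxylate carrier family gene SLC16A4, named after its values were seen, fell by 0.19. The other isozymes were mostly not called, with 2 of 13 higher: ENO3, the muscle enolase, rose 1.49-fold (9.52 ± 0.052 against 8.95 ± 0.042, log2 difference 0.58) and PGAM2 by 0.31 at dim values (5.14 in OCRL siRNA cells and 4.83 in control cells).

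For pyruvate dehydrogenase and the entry of pyruvate into mitochondria, 4 of 11 genes were higher and 1 lower. PDP1, the phosphatase that opposes the PDK kinases, rose 1.61-fold (9.60 ± 0.029 in OCRL siRNA cells against 8.91 ± 0.053 in control cells, log2 difference 0.68, SE 0.047). The pyruvate carrier gene MPC1 rose by 0.34 and pyruvate carboxylase, PC, by 0.52. MPC2 (0.17) and the dehydrogenase subunit gene DLAT (-0.25), both named after their values were seen, completed the calls. Of 14 genes of gluconeogenesis and glycogen 4 were higher and 2 lower, among them PCK2 (0.31) and UGP2 (0.28), which rose, and G6PC3 (-0.24), which fell. The remaining calls, SLC37A4 (0.17), PGM1 (0.18) and PYGL (-0.29), were named after their values were seen. Of 6 pentose phosphate genes RPIA (0.21) and TALDO1 (0.17) were higher, and both calls were lost in most fits with an array left out.

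Among 13 other HIF regulators 0 were higher by limma (1 at an unadjusted p under 0.05) and 1 was lower. CITED2, a HIF-induced protein that competes with HIF for the coactivator p300, was at 10.39, 10.28 and 10.28 in OCRL siRNA cells, against 11.31, 11.17 and 11.18 in control cells, and fell 1.87-fold (log2 difference -0.91, SE 0.059, adjusted p = 1.40e-04). Of 23 further hypoxia-induced genes, 6 were higher and 4 lower, and their median difference was 0.03. The mTORC1 inhibitor gene DDIT4 (1.28), the ectonucleotidase gene NT5E (0.99) and ZNF395 (0.72) had the smallest p among the rises. HILPDA (0.27), AK4 (0.29) and NARF (0.42), named after their values were seen, also rose. The 4 that were lower, named after their values were seen, were IGFBP3 (-1.10, 10.93 ± 0.056 against 12.03 ± 0.101), an IGF-binding protein, VLDLR (-0.59), a lipoprotein receptor, and the histone demethylase genes KDM4B (-0.22) and KDM4C (-0.33).

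**Figure D5:**
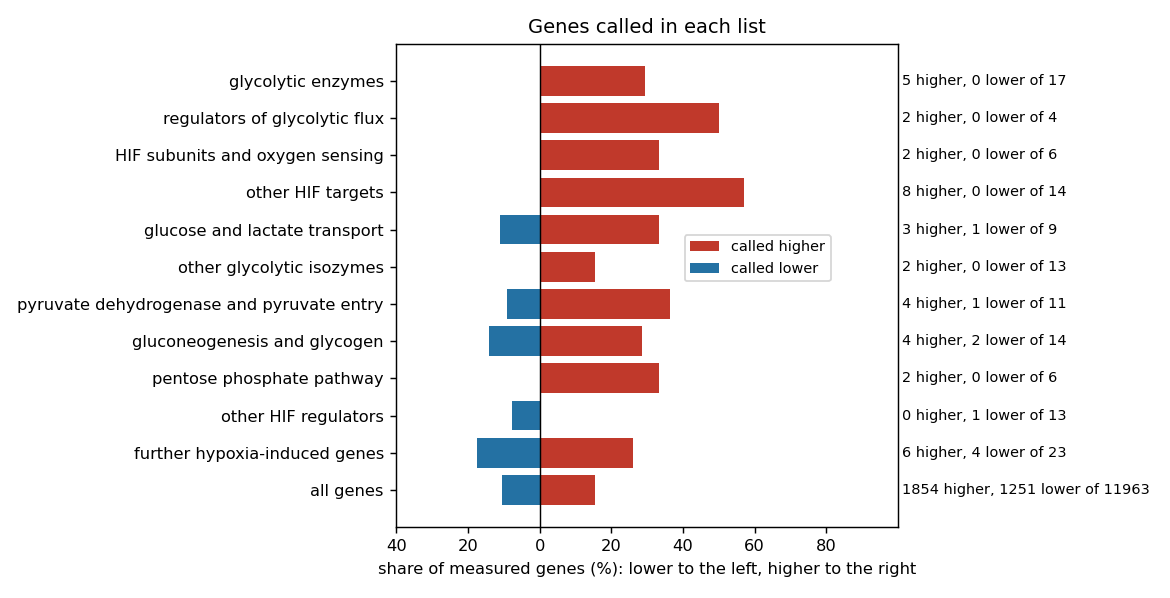
Bars give the share of measured genes called higher (right of 0) and lower (left of 0) in the 4 groups of members, the 7 further lists and all genes, with counts at the right edge. The other HIF targets have the longest bar to the right, 8 of 14, and calls to the left appear in the further lists and in all genes.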

How the data were processed

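Biotin-labelled RNA was measured on single-colour Affymetrix GeneChips, 1 array per sample, per the labels' protocols. The authors deposited log2 intensities per probe set. The tools affy and RMA appear in the submitters' processing notes without versions. Of 22277 probe sets, 62 controls were left out and 22215 tested. Names came from GEO's platform annotation, where 19064 probe sets had 1 symbol, 1043 several and 2108 none, and 19052 matched RefSeq by Entrez identifier. A gene was read from its probe set with the highest mean over the 6 arrays. limma 3.58.1 in R 4.3.3 compared groups (lmFit, then eBayes, with no covariate, two-sided, Benjamini-Hochberg over all 22215 probe sets, threshold 0.05); SE is moderated and the script was tested on simulated data. Pairs of relatives were compared by exact permutation of arrays (scipy 1.17.1).

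Members and lists were chosen with earlier results of these data known. All members and OCRL are named. Up to 3 called genes of each further list are named by smallest p, so these were also picked by their values. Genes said above to be named after their values were seen fall outside that rule. Alternatives were a replicate block, arrays left out in turn, quantile normalisation, median centring, trend and robust settings, array weights, dim or _s_at and _x_at probe sets left out, other probe set choices and a 1.5-fold minimum. Nothing in the labels says that experiments shared a day or passage.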

Additional observations from a re-analysis of the deposited data

How the results depend on the processing

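OCRL stayed lower and called in every setting in which it was measured. It has only _s_at probe sets, so it was not measured with those left out. Of the 17 members called higher, 10 kept sign and call in all settings that measured them, other than the 1.5-fold minimum (CA12, NDRG1, VEGFA, BHLHE40, PDK1, PDK3, ANGPTL4, ENO2, BNIP3L and P4HA2). Of these, NDRG1, VEGFA, BHLHE40 and ANGPTL4 have only _s_at or _x_at probe sets and were not measured with those left out. The other 7 of the 17 lost the call in at least 1 setting, PKM in 10 of 15 and EGLN3 in 9 of 13. The number called higher was 12 to 16 with an array left out, beside 11.1% to 14.6% of all genes. Without _s_at and _x_at probe sets it was 9 of 22 measured, beside 12.4% of the genes then tested. With at least 1.5-fold it was 5, beside 2.51% of all genes, when PDK3, ANGPTL4, ENO2, BNIP3L and P4HA2 were also lost. The number called lower was 0 with each array left out, beside 7.08% to 10.4% of all genes. It was 1, PGK1 each time, after quantile normalisation (12.0% of genes), without _s_at and _x_at probe sets (9.73%) and with the mean of probe sets (11.6%). It was 2, PGK1 and P4HA1, after median centring (14.8%) and with dim probe sets left out (21.0%). With trend and robust settings it was 3, PGK1, P4HA1 and ENO1 (13.4%). The median difference of members was 0.12 to 0.15 with an array left out and 0.10 after median centring, which removed a difference of 0.046 between the groups' array medians. Of members not called, 8 gained a call in some setting: BNIP3 without control replicate 1 (adjusted p = 0.0311) and MXI1 without OCRL siRNA replicate 1 (0.0494) did so by 1 array.

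The labels do not say whether same-numbered arrays belong together, and 3 arrays per group cannot settle it. Same-numbered deviations correlated at 0.142, 0.123 and -0.009, and differently numbered ones at -0.176 to 0.096. With the replicate number as a block 13 members were higher and 0 lower, beside 13.4% and 9.47% of all genes. Over all genes 2742 were then called, against 3105 without the block.

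Signs changed 22 times, 21 of them for differences not called before or after, the exception being PKM. After median centring HK1 was at -0.0026, VHL at -0.029 and ADM at -0.0089. With the most variable probe set PFKL was at 0.017, TPI1 at 0.0079 (also without _s_at and _x_at probe sets), GAPDH at 0.0073, LDHB at 0.0037, ARNT at 0.19 and PKM at -0.054. ARNT was at 0.062 with array weights and 0.060 with the mean of probe sets. With an array left out the range was -0.058 to 0.0091 for PFKL, -0.025 to 0.0043 for GAPDH, -0.064 to 0.074 for ARNT, -0.020 to 0.066 for VHL, -0.030 to 0.099 for ADM and -0.074 to 0.012 for PLOD1. The median of the glycolytic enzymes was 0.090 without _s_at and _x_at probe sets, when 8 of the 17 were measured. The cause of the other changes was not tested.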
